A study of Mus musculus with 6 samples.

Results

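Metallothioneins are small cysteine-rich proteins that bind zinc and copper, and with the zinc transporters they set how much zinc is free in a cell. The 9 genes described here are the metallothioneins Mt1, Mt2 and Mt3, the zinc-sensing transcription factor Mtf1, the exporters Slc30a1 and Slc30a10 of the ZnT family, and the importers Slc39a1, Slc39a6 and Slc39a10 of the ZIP family. They were chosen by name, with earlier results of these data known. All 9 were found among the 18743 annotated genes in the data, and all 9 passed the filter on low counts that left 12779 genes for testing. Slc30a10 passed that filter through its counts in the hemin libraries alone. The samples were primary oligodendrocyte progenitor cells (OPCs), the glial precursors that later form myelin. They came from wild type C57BL/6 mice, labelled as postnatal day 1, and had been taken from the cortex with magnetic beads against PDGFRα. After 3 days in growth medium the cells received 0.25% DMSO as vehicle (3 samples) or 50 µM hemin, the oxidised form of heme (3 samples), for 12 h. No DMSO percentage was given for the hemin samples in the sources used here. The series concerns ferroptosis, a death by iron-dependent lipid peroxidation, after bleeding in the brain. Nothing in the labels says that replicates came from separate litters or cultures, so each p-value reflects variation among these 6 samples alone, and that variation may be technical.

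In textbook accounts, zinc that enters the cytosol is detected by the zinc fingers of MTF1, which then binds metal response elements in DNA and raises transcription of Mt1, Mt2 and Slc30a1. The induced proteins bind or export the metal and close the loop. MTF1 is also known to repress Slc39a10. Mt1 and Mt2 are made in most tissues and respond to metals, glucocorticoids and oxidative stress, whereas Mt3 is found mainly in the brain. In brain tissue all 3 are known from astrocytes more than from cells of the oligodendrocyte lineage.

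A rarely detected exporter and the metal-sensing factor rose with hemin, while the values of each metallothionein overlapped between the groups and none was called. Slc30a10 went from 3 counts over the vehicle libraries to 145 over the hemin libraries, and Mtf1 rose 1.41-fold. The other 7 genes, Mt1, Mt2 and Mt3 among them, did not pass. A gene was called when its p in edgeR's quasi-likelihood test, adjusted by Benjamini-Hochberg over all 12779 genes, was below 0.05. By that rule 2 of the 9 genes were called, both higher, beside 31.9% of all tested genes called in either direction, 16.2% called higher and 15.7% called lower. The median log2 fold change was 0.23 over the 9 genes and 0.0022 over all tested genes. Among the 9, then, calls were no more frequent than among all genes. Of the 2 calls, that of Slc30a10 concerns a gene that entered the test through its hemin counts alone. The alternatives called 33.6% of all genes with libraries scaled by totals, 31.9% with relative log expression factors, 27.1% in DESeq2, 22.0% without the count filter and 29.2% in a fit blocked on replicate number. Limma on FPKM called 32.9 and 32.1% at pseudocounts of 1 and 0.1, and 23.0% at 1 without its filter. Leaving out vehicle replicate 1, 2 or 3 gave 19.8, 19.5 or 25.0%, and leaving out hemin replicate 1, 2 or 3 gave 34.8, 22.3 or 27.4%.

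Depth was even, with 6339966 to 6523639 expected counts per library, which are the authors' estimates of reads per gene. Over all genes, 2072 were called higher and 2005 lower, a split that became 1715 and 2582 when libraries were scaled by their totals alone. All 8 OPC markers looked up were listed, 7 of them fell with hemin, and their summed level went from 1205 to 1450 FPKM (fragments per kilobase of transcript, scaled to library size) with vehicle to 389 to 592 FPKM with hemin. Of 9 tested astrocyte markers, 1 rose (Gja1) and 4 fell (Aqp4, Slc1a2, Sox9 and S100b). The summed level of the 10 on the list was 511 to 591 FPKM with vehicle and 407 to 542 FPKM with hemin. Within that list, Slc1a3 was at 199 FPKM or more in every library, Aldoc at 65.2 or more, Sox9 at 27.8 or more, Gfap at 23.5 or more and Aldh1l1 at 22.4 or more. Means with vehicle and hemin were 16.2 and 7.83 FPKM for Aqp4, 20.9 and 8.27 FPKM for Slc1a2, and 20.8 and 49.5 FPKM for Gja1. At the low end, S100b was at 3.39 FPKM or less and Gjb6 at 0.06 FPKM or less. Of 6 tested microglial markers 2 rose and none was called lower, with summed levels of 8.82 to 15.8 and 22.2 to 25.4 FPKM over the list of 9. Neuronal markers summed to 186 to 216 and 90.1 to 135 FPKM (3 of 8 lower), vascular and fibroblast markers to 3.55 to 8.07 and 7.09 to 15.3 FPKM (2 of 6 higher), and myelinating oligodendrocyte markers to 31.0 to 52.0 and 24.7 to 36.4 FPKM (1 of 3 lower). These counts stand beside 31.9% of all tested genes called in either direction, 16.2% higher and 15.7% lower. Counts such as 2 of 6 or 1 of 3 are close to the share called in either direction. In bulk RNA, fewer cells of a type and less RNA per cell cannot be told apart, and the part of these marker shifts in the results below was not tested.

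**Figure D1:**
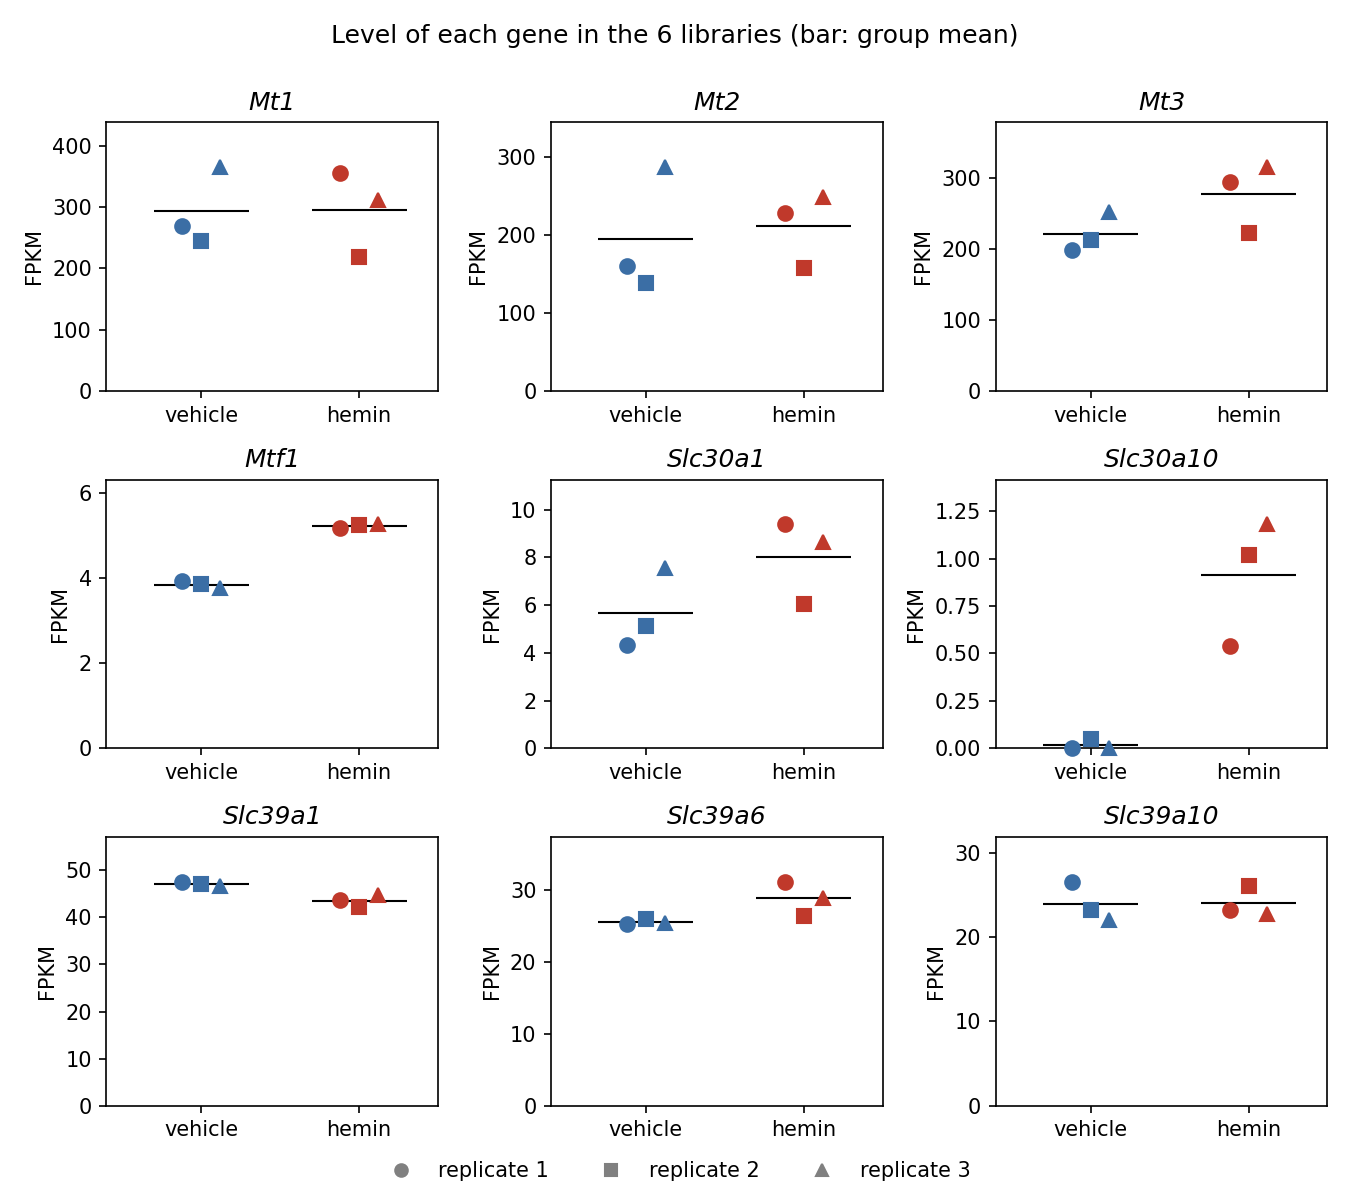
FPKM of the 9 genes in each library, 1 plot per gene with its own axis from 0. Symbols mark the replicate number and bars the group means. The hemin points of Mtf1 and Slc30a10 lie above all vehicle points, while for Mt1, Mt2 and Mt3 the groups overlap.

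The metallothioneins were among the most abundant transcripts of these cultures. Mt1 (gene identifier 17748 in the files) stood at 269.6, 245 and 366 FPKM in vehicle replicates 1 to 3, against 356, 219 and 312.5 FPKM in hemin replicates 1 to 3. The highest value was that of a vehicle library and the lowest that of a hemin library, and the groups overlapped. The means were 294 ± 63.9 and 296 ± 69.9 FPKM (SD, n = 3 per group), and only 0.848% of the genes listed with vehicle had a mean at or above that of Mt1. The fitted log2 fold change was 0.08 ± 0.22 (SE, edgeR adjusted p = 0.819), with a 95% interval of the hemin to vehicle ratio from 0.737 to 1.51. A doubling of Mt1 lies outside that interval. The sign of the Mt1 value turned in 3 of 14 alternative analyses: with libraries scaled by their totals, without vehicle replicate 2 and without hemin replicate 1.

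Mt2 (17750), whose protein is close to that of Mt1 and which lies next to it on the same chromosome, showed the widest spread of the 3 with vehicle, though not with hemin. Its level was 160.5, 139 and 288 FPKM with vehicle and 229, 158 and 249 FPKM with hemin. Vehicle replicate 3 was the highest of all 6 libraries, and the groups overlapped. The means were 196 ± 80.6 and 212 ± 47.8 FPKM, with a log2 fold change of 0.18 ± 0.30 (edgeR adjusted p = 0.681) and a 95% interval of the ratio from 0.699 to 1.84. Without vehicle replicate 2 the value was -0.010. The expected counts of Mt1, Mt2 and Mt3 were whole numbers (within 0.005) in every library, so no read was divided by fractions between these similar genes.

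Mt3 (17751), the metallothionein of the brain, had a level in the range of the other two in these cultures. It stood at 198, 212 and 252 FPKM with vehicle, against 294, 223 and 315 FPKM with hemin. Hemin replicates 1 and 3 lay above every vehicle library, and hemin replicate 2 lay below vehicle replicate 3. The means were 221 ± 27.95 and 277 ± 48.4 FPKM (log2 fold change 0.40 ± 0.16, edgeR adjusted p = 0.0966, interval of the ratio, not adjusted for the number of genes, from 1.02 to 1.71). Without hemin replicate 2 the gene was called higher (log2 fold change 0.54, edgeR adjusted p = 0.0387), so that library decides the call. Mt4, the metallothionein of squamous epithelia, was not listed in any library.

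The proportions of the 3 metallothioneins overlapped between the treatments. Per length, Mt1 exceeded Mt2 by 1.27 to 1.77 times in the vehicle libraries and by 1.25 to 1.55 times in the hemin libraries. Mt3 stood at 0.689 to 0.863 of the Mt1 level with vehicle and at 0.826 to 1.02 with hemin, so these ratios overlapped too. Together the 3 summed to 628, 595 and 906 FPKM with vehicle and to 879, 600.1 and 877 FPKM with hemin. Within each group the lowest sum was that of replicate 2.

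To show where the letters that MTF1 is known to bind stand near these genes, the 250 bases before the start of the RefSeq model are printed for the metallothioneins and both exporters, 5′ to 3′ on the coding strand, with the core of the metal response element in capitals. The core was searched as TGCACNC and TGCGCNC on both strands, and overlapping matches were merged. The windows lie on assembly GRCm38.p6, plus strand, at chr8:94178839-94179088 (Mt1), chr8:94172368-94172617 (Mt2), chr8:94152357-94152606 (Mt3), chr1:191906531-191906780 (Slc30a1) and chr1:185454598-185454847 (Slc30a10). All are upstream of the first exon of the RefSeq model. The build used for the counts is not settled by the sources used here, so no count is tied to these coordinates.
Mt1: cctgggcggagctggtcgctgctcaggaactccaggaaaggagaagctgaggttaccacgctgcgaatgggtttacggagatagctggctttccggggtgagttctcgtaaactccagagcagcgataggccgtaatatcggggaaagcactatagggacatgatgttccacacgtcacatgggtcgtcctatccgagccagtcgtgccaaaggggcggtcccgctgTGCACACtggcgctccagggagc
Mt2: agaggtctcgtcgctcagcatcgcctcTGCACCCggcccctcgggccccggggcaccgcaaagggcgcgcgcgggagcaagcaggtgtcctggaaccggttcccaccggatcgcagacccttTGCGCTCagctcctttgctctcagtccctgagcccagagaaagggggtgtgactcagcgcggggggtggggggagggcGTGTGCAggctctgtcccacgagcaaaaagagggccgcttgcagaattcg
Mt3: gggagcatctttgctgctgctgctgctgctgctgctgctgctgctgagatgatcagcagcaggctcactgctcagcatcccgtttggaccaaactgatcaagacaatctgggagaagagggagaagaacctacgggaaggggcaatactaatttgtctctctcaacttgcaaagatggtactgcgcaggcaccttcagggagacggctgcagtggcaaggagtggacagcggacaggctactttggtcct
Slc30a1: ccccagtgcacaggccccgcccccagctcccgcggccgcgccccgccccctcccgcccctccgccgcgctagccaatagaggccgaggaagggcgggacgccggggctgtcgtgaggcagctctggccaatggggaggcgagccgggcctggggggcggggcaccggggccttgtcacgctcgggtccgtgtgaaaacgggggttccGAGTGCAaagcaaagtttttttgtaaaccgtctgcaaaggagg
Slc30a10: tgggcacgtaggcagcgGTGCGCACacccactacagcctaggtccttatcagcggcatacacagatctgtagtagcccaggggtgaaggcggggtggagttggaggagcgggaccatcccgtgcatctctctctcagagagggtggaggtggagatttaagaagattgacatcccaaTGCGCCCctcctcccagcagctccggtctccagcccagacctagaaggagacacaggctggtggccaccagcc

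The core occurred at 3 places in the Mt2 window, 2 in that of Slc30a10 and 1 each in those of Mt1 and Slc30a1, and was not matched in those of Mt3, Mtf1 and Slc39a1 or in the 2 windows of Slc39a10. Of 32851 RefSeq windows of the same length, 21.4% held it at least once, 4.3% at 2 or more places and 0.77% at 3 or more. In Mt2 the matches began 223, 128 and 50 bases before the start, and in Slc30a10 233 and 73 bases before it. With the 50 bases after the start included, Mt1 held 3, Mt2 4, Slc30a1 2, Slc30a10 2 and Mt3 1. GENCODE vM21 lists further Mt1 transcripts that start 122 and 152 bases downstream of the RefSeq start and Mt2 transcripts 46 and 242 bases downstream. For Mt3 and Slc30a1 such starts lie 139 and 475 bases downstream. Part of the sequence before those starts falls outside the windows. An Mtf1 transcript starts at -445, upstream of the whole Mtf1 window, so the sequence before it was not searched. For Slc39a10 the GENCODE start nearest to a RefSeq start lies at -428, outside its window. The core of the antioxidant response element, searched as TGACNNNGC on both strands, stood once in each of the windows of Mt2, Slc30a1 and Slc39a1, and in 10.2% of all windows. The heat shock core, searched as GAANNTTC and TTCNNGAA, was in none of these windows and in 12.8% of all. A match is a run of letters and not a measured binding site. The RefSeq windows of the called genes Slc30a10 and Mtf1 differ in whether they hold the metal response core.

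Of the 2 called genes, Mtf1 (17764) was the more abundant, with values that lay close together within each group. It stood at 3.93, 3.85 and 3.76 FPKM with vehicle, against 5.18, 5.24 and 5.26 FPKM with hemin. All 3 hemin libraries lay above all 3 vehicle libraries, and the values within a group differed by less than the gap between the groups. The rise was 1.41-fold, from 3.85 ± 0.085 to 5.23 ± 0.0416 FPKM (log2 fold change 0.49 ± 0.10, edgeR adjusted p = 0.0103). The call was lost in limma on log2(FPKM + 1), with adjusted p = 0.0501 on genes above the FPKM minimum and 0.0684 on all genes. On the opposite strand, exons of Mtf1 overlap those of the protein-coding gene 1110065P20Rik, which stood at 12.0, 14.05 and 12.95 FPKM with vehicle and 6.76, 13.3 and 14.9 FPKM with hemin. The sources used here do not say whether the counting used strand, so reads of the shared exons cannot be told apart. The expected counts of Mtf1 were not whole in every library, so some of its reads appear to be shared with transcripts outside the gene.

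Slc30a10 (226781), an exporter of manganese and zinc at the cell surface, was nearly undetected with vehicle and low but present with hemin. It had 0, 3 and 0 counts in the vehicle libraries and 29, 54 and 62 in the hemin libraries, which is 0, 0.05 and 0 against 0.54, 1.02 and 1.18 FPKM. These are rounded expected counts that were not whole in every library, so some reads appear to be shared with transcripts outside the gene. The counting interval below takes them as whole. All vehicle counts came from replicate 2, without which the vehicle group is at 0, and the groups did not overlap. The ratio of summed counts, scaled by library totals, was 47.3 with a 95% interval from 15.9 to 232 that covers counting error only (edgeR adjusted p = 0.00278). The call held in the 12 alternatives that tested the gene. The fitted log2 fold change was 5.48 ± 0.79, and 8.62 without vehicle replicate 2, a value that depends on the prior count. Even with hemin the level stayed far under that of Slc30a1 per length. The lincRNA gene Gm2061 overlaps it on the opposite strand at 0.29 to 0.66 FPKM over the 6 libraries, with the same limit on strand.

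Slc30a1 (22782), the main zinc exporter of the plasma membrane and a target of MTF1, was not called. Its level was 4.33, 5.12 and 7.54 FPKM with vehicle and 9.39, 6.07 and 8.63 FPKM with hemin. Vehicle replicate 3 lay above hemin replicate 2, which made the groups overlap. The means were 5.66 ± 1.67 and 8.03 ± 1.74 FPKM (log2 fold change 0.56 ± 0.25, edgeR adjusted p = 0.134, interval of the ratio from 0.975 to 2.22). Without vehicle replicate 3 the gene was called higher, with a log2 fold change of 0.84 and an edgeR adjusted p of 0.0382. An antisense gene on the opposite strand, 1700034H15Rik, was at 0.13 to 0.28 FPKM in the 6 libraries.

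None of the 3 importers was called. Slc39a1 (30791), a widely expressed zinc importer, stood at 47.5, 47.1 and 46.65 FPKM with vehicle and 43.8, 42.2 and 44.6 FPKM with hemin. On the FPKM scale every hemin library lay under every vehicle library, but after TMM scaling (a correction of library sizes for composition) the log2 fold change was only -0.06 ± 0.08 (edgeR adjusted p = 0.61). Slc39a6 (106957), which pairs with Slc39a10 to form a zinc importer, stood at 25.3, 26.1 and 25.4 FPKM with vehicle and 31.2, 26.4 and 28.98 FPKM with hemin, a log2 fold change of 0.23 ± 0.10 (edgeR adjusted p = 0.128). Its groups did not overlap, although hemin replicate 2 lay close to the vehicle libraries. Slc39a10 (227059), the partner that MTF1 is known to repress, stood at 26.5, 23.2 and 22.03 FPKM with vehicle and 23.2, 26.04 and 22.7 FPKM with hemin. Its means of 23.9 ± 2.34 and 24.0 ± 1.78 FPKM gave a log2 fold change of 0.06 ± 0.11 (edgeR adjusted p = 0.716, interval of the ratio from 0.877 to 1.24), which turned to -0.035 with libraries scaled by their totals alone. In all, the FPKM of the groups did not overlap for 4 of the 9 genes, 3 higher and 1 lower, beside 49.1% of all tested genes (21.5% higher and 27.5% lower).

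The order of the levels per length was the same with vehicle and with hemin. Mt1 came first, then Mt3, Mt2, Slc39a1, Slc39a6, Slc39a10, Slc30a1, Mtf1 and Slc30a10. The ranges of Mt1 and Mt3 overlapped in both groups, as did those of Mt3 and Mt2. Those of Slc39a6 and Slc39a10 overlapped with vehicle and not with hemin. All other neighbours were apart in both groups. Against 0.848% for Mt1, the share of listed genes at or above the vehicle mean was 7.53% for Slc39a1, 43.7% for Slc30a1 and 50.5% for Mtf1.

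Replicates of the metallothioneins and Slc30a1 spread more widely than those of Mtf1 and the importers. The coefficient of variation within a group was 12.7 to 41.2% for the metallothioneins and 21.7 to 29.5% for Slc30a1, against 0.797 to 2.21% for Mtf1 and 0.914 to 9.78% for the importers. Slc30a10, near 0 with vehicle, had the highest coefficient of the 9, at 173% with vehicle and 36.5% with hemin, and it followed another order: it was highest in replicate 2 with vehicle and lowest in replicate 1 with hemin. In the vehicle group Mt1, Mt2, Mt3 and Slc30a1 were each highest in replicate 3, and in the hemin group each was lowest in replicate 2. Gfap, the filament of astrocytes, stood at 56.0, 29.4 and 54.0 FPKM with vehicle, against 40.1, 23.5 and 61.8 FPKM with hemin. Gfap was lowest in replicate 2 of both groups and highest in vehicle replicate 1 and hemin replicate 3. Of the other tested astrocyte markers, Aqp4, Slc1a2, Gja1, Sox9, Aldoc and S100b were also lowest in hemin replicate 2, and Aldh1l1 and Slc1a3 were not. With vehicle, all of these markers were highest in replicate 1 or 2. Aqp4, Aldh1l1, Slc1a2, Sox9 and S100b were lowest in vehicle replicate 3. Slc1a3, Gja1 and Aldoc were lowest in vehicle replicate 2, as Gfap was. The part of astrocyte content in these values was not tested.

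**Figure D2:**
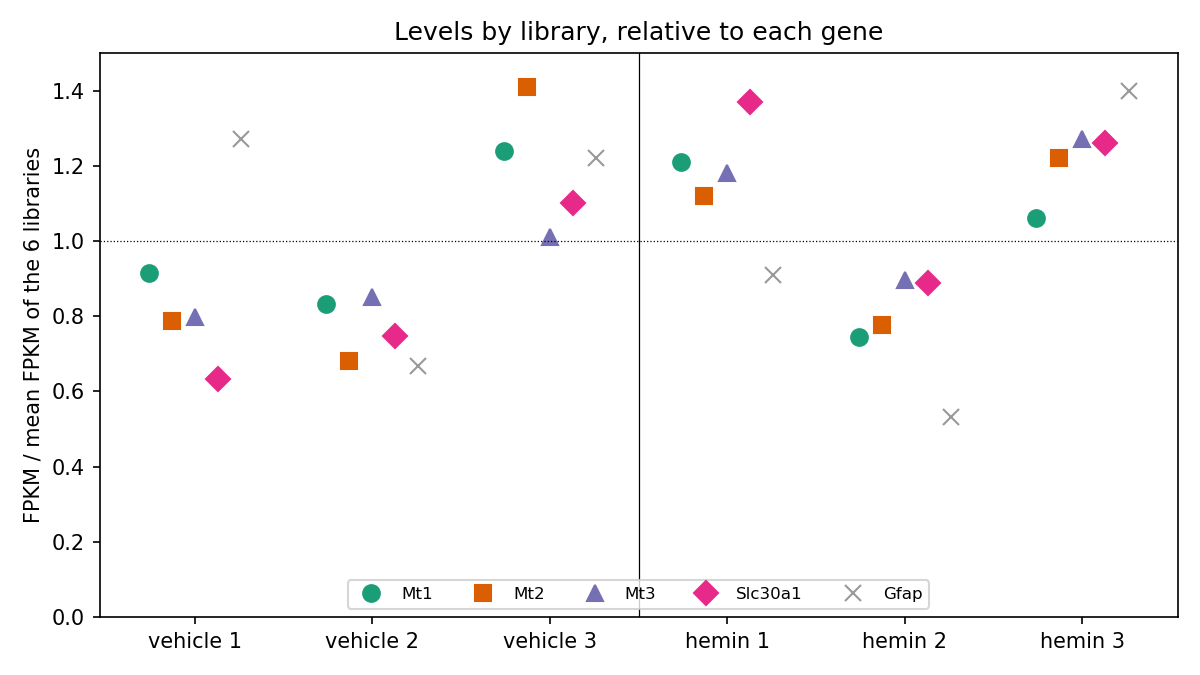
FPKM of Mt1, Mt2, Mt3, Slc30a1 and the astrocyte marker Gfap in each library, divided by the gene's own mean over the 6 libraries (dotted line at 1). Replicates have no order, and the other astrocyte markers are not shown. The 4 zinc genes have their highest vehicle value in replicate 3 and their lowest hemin value in replicate 2, where they lie between 0.744 and 0.895.

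As a description of how alike the patterns were, the genes closest to 4 members were found by the root mean square difference of log2 CPM (counts scaled to library size), centred on each gene's mean over the 6 libraries, among genes with a mean of at least 5 FPKM in either group. Closest to Mt1 among 8171 genes were Plxnd1, Nat10 and Cnot11, at 0.116 to 0.119. For Mt1, Mt2 ranked 95 at 0.191, Mt3 172, Slc30a1 1006 at 0.277 and Gfap 3799. Closest to Mt2 were the chemokine Cx3cl1 at 0.136 and Efhd2 and Arfip2, both at 0.168. For Mt2, Slc30a1 ranked 30 and Mt3 41, while Gfap ranked 1598. These ranks within the set were looked up after its values were seen. Closest to Slc30a10 were the transcription factor gene Junb at 0.403, the chemokine gene Cxcl10 at 0.488 and Zfp36, which speeds mRNA decay, at 0.507. All 3 were called higher, with log2 fold changes of 3.82, 5.02 and 3.61. The log2 CPM values include a prior count, so the distances from Slc30a10, with few vehicle counts, depend on it. Closest to Mtf1 were Tmed5 at 0.016 and Zfp869 and Qsox1, both at 0.021, which were called higher by 0.50, 0.50 and 0.52 on the log2 scale. Qsox1 missed the threshold when vehicle replicate 1 (edgeR adjusted p = 0.0569) or 2 (0.0572) was omitted. The 6 genes nearest to Mt1 and Mt2 were not called. The distance includes the difference between the groups, so the calls of all these neighbours follow largely from how they were picked and are not separate results.

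The rest of the metallothionein, ZnT and ZIP genes moved in both directions. Of the 29 genes on that list, which includes the 9, 26 were listed and 22 could be tested, of which 5 were called higher and 1 lower, with a median log2 fold change of 0.17. Mt4, Slc30a8 and Slc39a5 were not listed, and Slc30a2, Slc30a3, Slc39a2 and Slc39a4 had too few counts. Outside the 9, the calls were Slc30a4, Slc39a7 and Slc39a8, higher, and Slc39a3, lower. That is 4 of 13 tested genes, beside 31.9% of all tested genes.

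**Figure D3:**
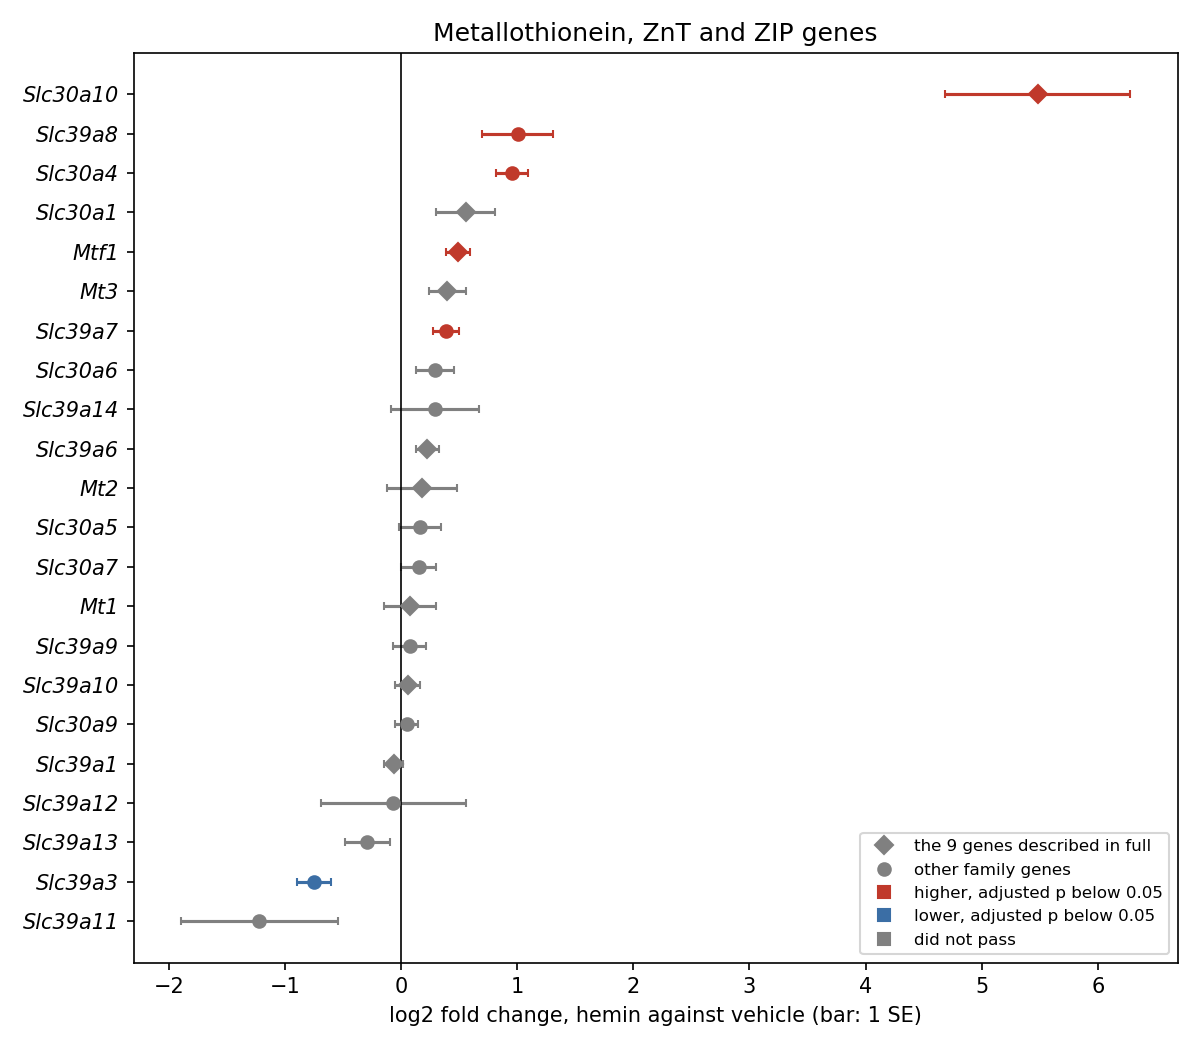
Log2 fold change of hemin against vehicle for the 22 tested genes of the metallothionein, ZnT and ZIP list, Mtf1 included, with bars of 1 SE. Diamonds are the 9 genes described in full and circles the other family genes. Red genes were called higher, blue lower and grey ones did not pass. Slc30a10 stands apart at 5.48, and all the others lie between -1.22 and 1.004.

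Among the ZnT exporters, Slc30a4, which loads zinc into vesicles and is known from the zinc content of milk, rose 1.94-fold. It stood at 14.4, 14.2 and 14.04 FPKM with vehicle, against 31.1, 24.6 and 24.0 FPKM with hemin, with no overlap (log2 fold change 0.95 ± 0.13, edgeR adjusted p = 0.00251). Its call held in all 14 alternatives. With vehicle it made up 17.1 to 19.1% of the summed FPKM of the ZnT genes and with hemin 26.1 to 28.2%. Most of it was the longer of its 2 annotated transcripts, which was at 10.3 to 13.4 FPKM with vehicle and 20.5 to 24.5 FPKM with hemin. Slc30a5, Slc30a6 and Slc30a7 of the early secretory pathway had log2 fold changes of 0.17, 0.30 and 0.15, and Slc30a9, a mitochondrial zinc transporter, 0.05, and these 4 did not pass. Without hemin replicate 1, Slc30a5, Slc30a7 and Slc30a9 turned to -0.078, -0.024 and -0.028. The sign for Slc30a9 turned in 5 of 14 alternatives, libraries scaled by totals among them.

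Among the ZIP importers, Slc39a3, which brings zinc across the plasma membrane, fell 1.68-fold. It stood at 6.86, 8.07 and 8.28 FPKM with vehicle and 4.65, 4.16 and 4.52 FPKM with hemin, with no overlap (log2 fold change -0.75 ± 0.15, edgeR adjusted p = 0.00789, called in all 14 alternatives). Slc39a7, which releases zinc from the endoplasmic reticulum into the cytosol, rose 1.31-fold, from 40.4 ± 2.78 to 52.2 ± 3.95 FPKM (edgeR adjusted p = 0.0357). Its longer transcript was at 36.0, 38.5 and 43.6 FPKM with vehicle and 46.1, 37.9 and 36.3 FPKM with hemin, and its shorter one at 3.05, 0 and 0 against 10.2, 10.6 and 15.5 FPKM. The groups overlapped for the longer transcript and not for the shorter one, and how the authors' counting divides reads between the pair was not tested. Slc39a8, which imports zinc and manganese, rose 2.01-fold at a low level, from 0.457 ± 0.106 to 0.893 ± 0.134 FPKM (edgeR adjusted p = 0.0397).

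The calls of Slc39a7 and Slc39a8 depended on the analysis. That of Slc39a7 was lost in 7 of 14 alternatives (adjusted p from 0.053 to 0.112), among them those without vehicle replicate 1 or 2 or hemin replicate 2 or 3. That of Slc39a8 was lost in 11 (adjusted p from 0.0509 to 0.129), among them those without vehicle replicate 1, 2 or 3 or hemin replicate 1 or 2. Slc39a9 of the Golgi had a log2 fold change of 0.08 that turned negative with libraries scaled by totals or without hemin replicate 1, and Slc39a13, a further intracellular ZIP, one of -0.29. Neither passed. For Slc39a11, 156, 21 and 128 counts were found with vehicle, against 58, 44 and 23 with hemin, and the test did not call it (edgeR adjusted p = 0.207). Without vehicle replicate 2 it was called lower. It falls outside the rule for named genes and was chosen after its values were seen.

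Other metals were covered by a list of 12 copper genes and one of 7 genes for manganese and other divalent metals. Of 11 tested copper genes, 2 were called, both higher, beside 31.9% of all tested genes, with a median log2 fold change of 0.19. Atp7a, the copper-exporting ATPase, rose 4.03-fold. It stood at 3.02, 2.94 and 2.88 FPKM with vehicle, against 9.55, 13.5 and 11.4 FPKM with hemin, and no hemin library came near the vehicle range (log2 fold change 2.01 ± 0.14, edgeR adjusted p = 0.000199). Both of its annotated transcripts were higher in every hemin library, at 0 to 0.94 against 5.25 to 6.32 FPKM and at 1.94 to 2.94 against 3.23 to 7.37 FPKM. Sco1, which delivers copper to cytochrome c oxidase, rose 1.60-fold from 3.51 ± 0.412 to 5.403 ± 0.49 FPKM (edgeR adjusted p = 0.0176), a call lost without vehicle replicate 1 or 2 (0.0643 and 0.066). Of the 7 manganese and divalent metal genes, 2 were called, Slc30a10 and Slc39a8, both higher and both named above.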

How the data were processed

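RNA was measured in 3 vehicle and 3 hemin samples, grouped by their titles. Per the submitters' processing notes, Bowtie 0.12.2 and RSEM were used, with the builds mm8 and mm9 named without a role. Strand, filters and annotation release were not given in the sources used here. Per the file headers, the deposited tables give, for each annotated transcript, expected counts (estimated by the authors from the reads) and FPKM, which the authors scaled by length and library size. The tables list only transcripts above 0, so a missing gene was set to 0. Tables of unannotated features were not used.

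Transcripts were summed to 18743 genes by identifier; 18711 matched a symbol in RefSeq (GRCm38.p6). Summed expected counts were rounded and tested in R 4.3.3 with edgeR 4.0.16 (filterByExpr, TMM, glmQLFit and glmQLFTest, no covariate, two-sided, Benjamini-Hochberg over 12779 genes). SE is the log2 fold change divided by the square root of F. Ratio intervals are 95%, from that SE; the counting interval is exact (Clopper-Pearson), and since PCR reads carry no molecular identifiers it covers counting error only. With 3 samples a group, 6339966 to 6523639 counts per library leave genes of a few counts imprecise. Alternatives were other scalings, DESeq2 1.42.0, no filter, limma 3.58.1 on FPKM with pseudocounts of 1 and 0.1 (minimum mean 0.5 FPKM), the replicate number as a block, and leaving out each library. The code was tested on simulated data.

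The 9 genes and the lists were chosen with earlier results of these data known. Named are the 9, family genes that were called or had a mean of at least 5 FPKM in either group, called copper and manganese genes (at most 6), and the 3 genes nearest in pattern to Mt1, Mt2, Slc30a10 and Mtf1. Of the 9, 8 have a RefSeq promoter window; Slc39a6 does not. Expected counts of Mt1, Mt2, Mt3, Slc30a1, Slc39a1 and Slc39a6 were whole (within 0.005) in every library, and those of Mtf1, Slc30a10 and Slc39a10 were not, as RSEM gives where reads are shared between transcripts. Only 1 transcript each of Mtf1, Slc30a10 and Slc39a10 was listed, so such sharing would be with transcripts outside the gene, which were not identified.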

Additional observations from a re-analysis of the deposited data

How the results depend on the processing

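With edgeR and DESeq2, 2 or 3 of the 9 genes were called in each alternative, always Mtf1 and Slc30a10; limma on FPKM called 0 at a pseudocount of 1, 1 (Mtf1) at 0.1, and 1 (Slc30a10) at 1 without the filter, which otherwise removes Slc30a10. Of the longer list limma called 3, 4 and 5 in these 3 settings, against 6. Leaving out a library gave 2 to 3 calls among the 9, 4 to 6 on the list and 2551 to 4530 over all genes. The count over all genes was 2551 without vehicle replicate 2, 2597 without vehicle replicate 1 and 4530 without hemin replicate 1, against 4077 with all libraries. Each omission left the same number of samples, and the reason for the differences was not tested.

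Values near 0 turned sign. With totals alone the log2 fold change was -0.015 for Mt1, -0.035 for Slc39a10, -0.044 for Slc30a9, -0.019 for Slc39a9, -0.026 for Plxnd1 and -0.018 for Cnot11. In limma that of Slc30a9 was -0.0033 at a pseudocount of 1, with or without the filter, and -0.0034 at 0.1. Leaving out 1 library at a time gave ranges of -0.11 to 0.30 for Mt1, -0.010 to 0.60 for Mt2, -0.078 to 0.27 for Slc30a5, -0.024 to 0.23 for Slc30a7, -0.028 to 0.11 for Slc30a9, -0.090 to 0.17 for Slc39a9, -0.47 to 0.18 for Gfap, -0.063 to 0.20 for Plxnd1, -0.082 to 0.30 for Nat10, -0.14 to 0.22 for Cnot11 and -0.16 to 0.48 for Efhd2. The turned signs came without hemin replicate 1, except for Mt2, Efhd2 and Gfap, and also without vehicle replicate 2 for Mt1, Mt2, Plxnd1 and Efhd2, hemin replicate 3 for Efhd2, and vehicle replicates 1 and 3 and hemin replicate 2 for Gfap. The causes were not tested.

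With the replicate number as a block, 2 of the 9, 4 of the list and 3728 of all genes were called; Slc39a7 and Slc39a8 were lost. Deviations of same-numbered libraries from their group means correlated at 0.063, 0.1 and 0.157, and each library correlated best with its own number. The labels do not say whether the numbers mark pairs, so pairing is not settled and the main fit did not use it. With the block the SE fell from 0.22 to 0.16 for Mt1, from 0.30 to 0.17 for Mt2 and from 0.16 to 0.13 for Mt3. For Gfap it fell from 0.36 to 0.14. It also fell for Slc30a1, Slc30a10 and Slc39a10 and rose slightly for Mtf1, Slc39a1 and Slc39a6. Mt1, Mt2 and Mt3 were not called with the block. Slc30a10 with vehicle and Slc39a8, at few counts per library, are limited by depth.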
